A study of Mus musculus with 7 samples.

Results

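Oligodendrocyte and myelin genes were examined as a group of 31 symbols, chosen as markers of the oligodendrocyte lineage and of the myelin sheath. They were compared in hypothalamus arrays of mice with and without Creb in Pomc-expressing cells. A symbol was represented by the probe sets annotated to it alone, and by the one with the highest mean over all arrays where a gene had several. This gave 30 measured genes with 60 probe sets, of 18193 genes and 45037 probe sets on the array. The only probe set of Trf, which encodes the iron carrier transferrin, is also annotated to Srprb, and Trf was therefore not analysed here. The tested samples were 3 hypothalami labelled Creb-PomcCre-/-, in which Cre recombinase made in Pomc-expressing cells deletes Creb, and they were set against 4 labelled wild type. All mice were 3 months old, and no treatment is named. The sources used here do not give the strain, whether wild-type mice carried the Cre transgene or a floxed allele, or whether a sample came from 1 or several mice. The driver is known for pro-opiomelanocortin neurons, and a deletion in oligodendrocytes is not described.

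Oligodendrocytes arise from precursor cells that carry the growth factor receptor PDGFRA. They pass through a short newly formed stage and then wrap axons in myelin, a stack of lipid-rich membrane held together by proteins such as myelin basic protein. The transcription factors OLIG1, OLIG2 and SOX10 mark the lineage, and MYRF switches on the myelin genes when a cell matures. In the hypothalamus, myelin lies in fibre tracts such as the fornix, in the adjoining optic tract and among the nuclei, and new oligodendrocytes continue to be made in adult mice.

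Hcrt and Pmch, 2 of 12 measured hypothalamus markers, read high on the arrays. Of the 12, 9 read higher and 3 lower in Creb-PomcCre-/-. Mean log2 levels were 12.64 ± 0.201 (SD, n = 3) in Creb-PomcCre-/- and 12.31 ± 0.237 (SD, n = 4) in wild type for the orexin gene Hcrt, and 13.86 ± 0.105 in Creb-PomcCre-/- and 13.74 ± 0.117 in wild type for the melanin-concentrating hormone gene Pmch. Array medians lay between 6.20 and 6.24, and arrays correlated at 0.995 to 0.998 over genes. The labels give no sex. Xist, which is made from the inactive X chromosome, read 12.38 in Creb-PomcCre-/- array 1 and 12.54 and 12.26 in wild-type arrays 1 and 4, against 5.52 to 6.37 in the other arrays.

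None of the 30 genes passed the comparison of the genotypes, and the group did not lean either way. Values are deposited log2 levels, each difference is Creb-PomcCre-/- minus wild type, and the threshold is an adjusted p of 0.05 over all 18193 genes (limma). Of the 30, 0 passed it, as against 0.011% of all genes, and 15 read higher and 15 lower in Creb-PomcCre-/-. The median difference was -0.023, against 0.0036 over all genes. An unadjusted p under 0.05 was reached by 6 members, 5 higher and 1 lower, where 11.7% of all genes reached it, 5.6% higher and 6.12% lower. The genotypes did not overlap for 4 members, all higher in Creb-PomcCre-/-, where 12.1% of all genes did not overlap, 6.09% on the higher and 6.05% on the lower side. Over all genes, 51.5% read higher. These counts changed with the arrays and the model used, mainly on the lower side. Both arrays numbered 1 were left out, a pair chosen after the data were seen. Then 5 members were higher and 5 lower at that unadjusted p, against 12.7% of all genes, 5.8% higher and 6.87% lower. The genotypes then did not overlap for 6 higher and 6 lower members, against 32.0% of all genes, 16.3% higher and 15.7% lower. With all arrays and Xist as a covariate, 5 members were higher and 4 lower (limma, unadjusted p under 0.05). The share over all genes was not counted there. Of the 60 member probe sets, 26 read higher and 34 lower, where 53.2% of all 45037 probe sets read higher. Of these 60, 0 passed over all probe sets (limma), against 0.00666%, and 11 had an unadjusted p under 0.05, 9 higher and 2 lower, against 10.6%, with 5.55% higher and 5.07% lower. The genotypes did not overlap for 7 of the 60, all higher, against 11.0%, with 6.02% higher and 5.02% lower. Of the 16 members with several probe sets, 7 had probe sets on both sides of 0. Whole-tissue RNA cannot tell fewer cells of a type from less RNA per cell.

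The members that leaned up were all genes of mature oligodendrocytes, and the 7 genes of precursors, lineage factors and newly formed cells all read lower without passing. The 23 mature members had a median of 0.027, with 15 higher and 8 lower, and ran from -0.37 for Tspan2 to 0.45 for Klk6. The 3 lineage factors had a median of -0.063, the 3 newly formed members one of -0.083, and the precursor gene Pdgfra differed by -0.10. None of these 7 had an unadjusted p under 0.05 with all arrays and the highest-reading probe set. Pdgfra and Sox10 (-0.16 and -0.19) reached it without both arrays numbered 1, where 12.7% of all genes did (limma). The genotypes then did not overlap for either gene, as for 32.0% of all genes. Bcas1 (-0.13) reached an unadjusted p under 0.05 without wild-type array 1, where 14.5% did. Over all arrays, another probe set of Pdgfra and of Bcas1, both at 0.27, reached it on the higher side with no overlap (limma over all probe sets, adjusted p = 0.323 and 0.424). Of all probe sets, 10.6% reached it and 11.0% did not overlap. The plot of differences by stage shows intervals of very unequal width, from 0.03 of standard error for Mbp to 0.26 for Cldn11.

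**Figure D1:**
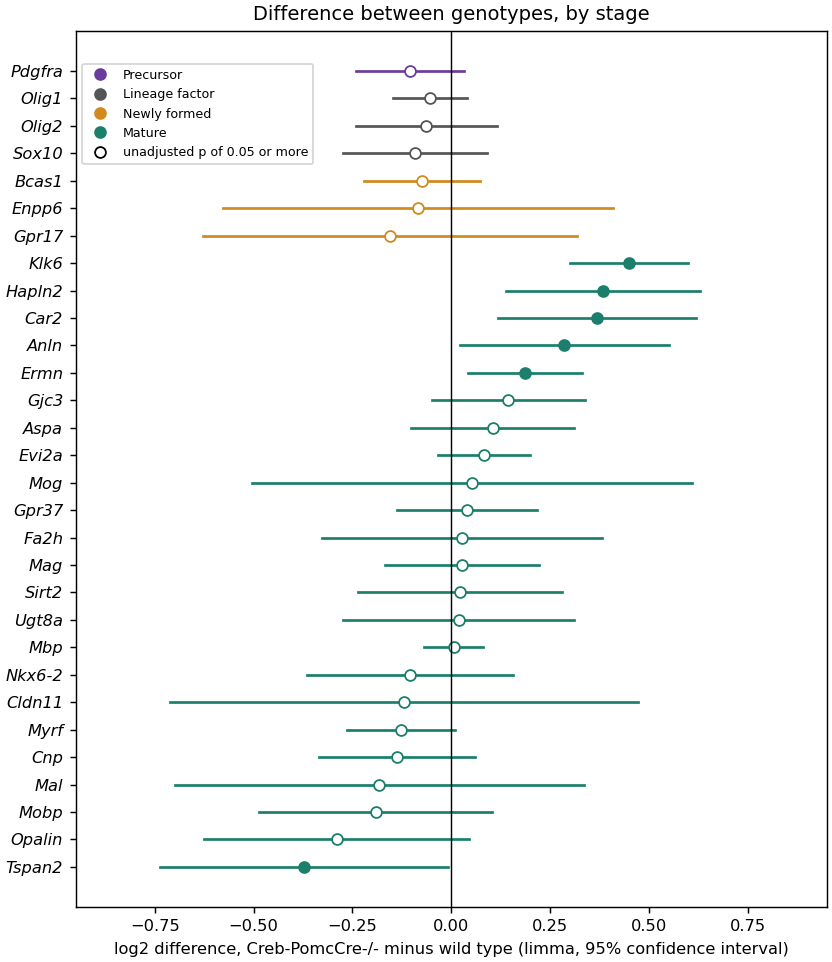
Log2 difference of each measured member, Creb-PomcCre-/- minus wild type, with limma's 95% confidence interval, ordered by stage and coloured by it. Filled points have an unadjusted p under 0.05. Klk6, Hapln2, Car2, Anln and Ermn lie to the right of 0, Tspan2 to the left, and 0 of the 30 passed the threshold over all genes.

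Klk6 had the largest difference of the 30. It encodes kallikrein 6, a secreted serine protease of oligodendrocytes that is strong in the spinal cord and hindbrain. It read 8.50, 8.37 and 8.45 in Creb-PomcCre-/-, against 8.13, 7.95, 7.97 and 7.92 in wild type. Every Creb-PomcCre-/- array lay above every wild-type array, and wild-type array 1 was the highest of its group. The difference was 0.45 ± 0.066 (SE), a fold of 1.37, short of the threshold (limma, adjusted p = 0.143). Without wild-type array 1 it was 0.49 and passed (limma, adjusted p = 0.0435). Over the 18 alternatives tried, the Klk6 difference ran from 0.42 to 0.49 and the adjusted p from 0.0435 to 0.730.

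Hapln2 and Car2 also separated the genotypes. Hapln2 encodes a link protein that binds hyaluronan at the nodes of Ranvier, and read 7.78, 8.13 and 7.70 in Creb-PomcCre-/-, against 7.58, 7.58, 7.41 and 7.38 in wild type. The difference was 0.38 ± 0.11 (SE; limma, adjusted p = 0.282), carried most by Creb-PomcCre-/- array 2, and was 0.25 at the lowest with an array left out. The other Hapln2 probe set differed by 0.39, with 1 Creb-PomcCre-/- array among the wild-type values. Car2, the carbonic anhydrase of oligodendrocytes and some other glial and vascular cells, read 12.28, 12.39 and 12.29 in Creb-PomcCre-/-, against 12.25, 12.004, 11.86 and 11.69 in wild type. The Creb-PomcCre-/- arrays lay within 0.107 of each other and the wild-type arrays spread over 0.556, with array 1 close to the Creb-PomcCre-/- values. The Car2 difference was 0.37 ± 0.11 (SE; limma, adjusted p = 0.304).

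Ermn, Anln and Evi2a leaned the same way by less. Ermn encodes ermin, a cytoskeletal protein of the myelinating process, and its probe set read 10.22, 10.48 and 10.41 in Creb-PomcCre-/-, against 10.13, 10.25, 10.21 and 10.14 in wild type. Creb-PomcCre-/- array 1 lay among the wild-type arrays, and the difference was 0.19 ± 0.064 (SE; limma, adjusted p = 0.342). The other Ermn probe set read 9.56, 9.69 and 9.64 in Creb-PomcCre-/-, against 9.30, 9.48, 9.40 and 9.30 in wild type, and differed by 0.26 with no overlap (limma over all probe sets, adjusted p = 0.287). Anln, the gene of the septin-binding protein anillin, which in the adult brain marks myelin, read 9.06, 9.04 and 8.93 in Creb-PomcCre-/-, against 8.88, 8.96, 8.46 and 8.59 in wild type. Wild-type arrays 3 and 4 were low, array 2 overlapped, and the difference was 0.29 ± 0.12 (SE; limma, adjusted p = 0.400). The other Anln probe set differed by 0.25. Evi2a, a membrane protein gene of oligodendrocytes that lies within an intron of Nf1, read 9.58, 9.59 and 9.57 in Creb-PomcCre-/-, against 9.56, 9.47, 9.55 and 9.38 in wild type. Its groups did not overlap only by a narrow margin, and the difference was 0.083 ± 0.051 (SE; limma, adjusted p = 0.544).

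**Figure D2:**
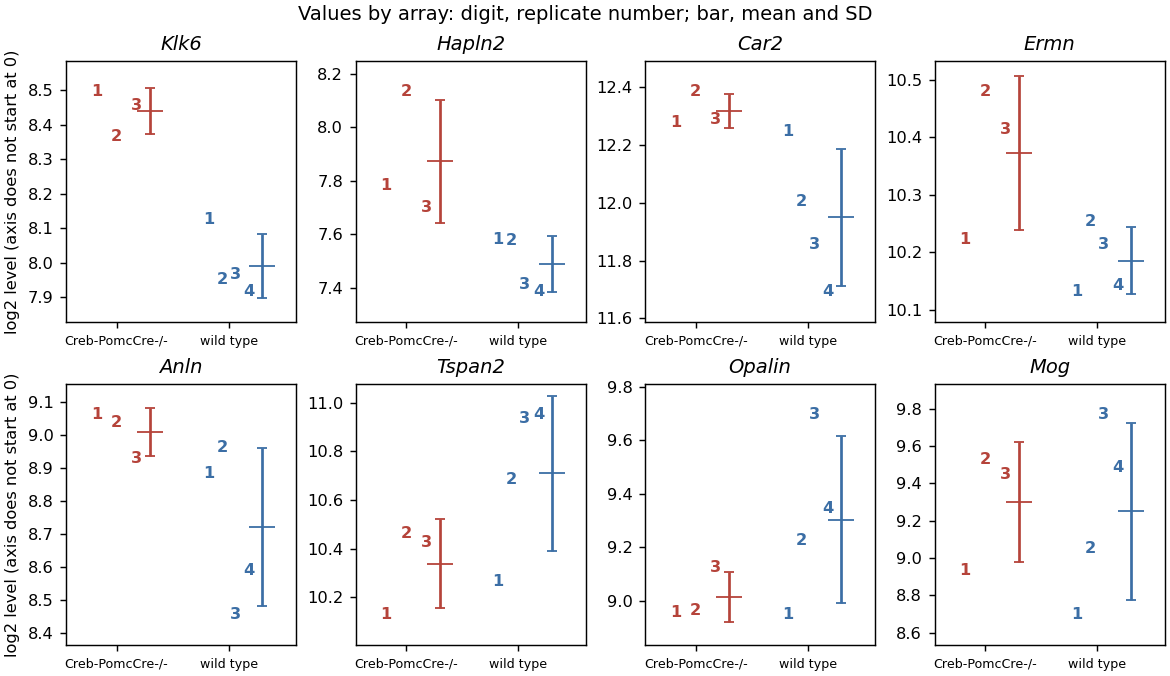
Log2 levels of 8 members by array, Creb-PomcCre-/- at the left and wild type at the right of each panel. Digits are replicate numbers, bars are means with SD (n = 3 and n = 4), and axes do not start at 0. Klk6, Hapln2 and Car2 show no overlap of the genotypes, whereas Mog spans 8.93 to 9.53 in Creb-PomcCre-/- and 8.70 to 9.77 in wild type.

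Tspan2 and Opalin were the members with the largest differences on the lower side. Tspan2 encodes a tetraspanin of the myelin membrane, and its probe set read 10.13, 10.46 and 10.42 in Creb-PomcCre-/-, against 10.26, 10.69, 10.93 and 10.95 in wild type. Wild-type array 1 overlapped the Creb-PomcCre-/- arrays, and the difference was -0.37 ± 0.16 (SE; limma, adjusted p = 0.419). The other Tspan2 probe sets differed by 0.000093 and -0.059, so the lower value rested on 1 of 3 probe sets. Opalin, a sialylated transmembrane protein of the myelin paranode, ranged from 8.96 to 9.12 in Creb-PomcCre-/- and from 8.95 to 9.70 in wild type, and differed by -0.29 ± 0.15 (SE; limma, adjusted p = 0.477).

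The proteins that build compact myelin showed no separation of the genotypes. Mbp, myelin basic protein, which seals the cytoplasmic faces of the sheath, read 14.03, 14.13 and 14.12 in Creb-PomcCre-/-, against 14.03, 14.07, 14.12 and 14.12 in wild type. Its difference of 0.0067 had a 95% confidence interval of -0.068 to 0.081. These values lay near the top of the array's range, where saturation of the probes was not tested. The 8 Mbp probe sets differed by -0.22 to 0.031, with 6 lower and 2 higher. The probe set at -0.22 read 7.05, 7.12 and 7.08 in Creb-PomcCre-/-, against 7.26, 7.10, 7.49 and 7.33 in wild type.

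Mobp, an abundant basic protein of compact myelin, read 12.61, 13.00 and 12.82 in Creb-PomcCre-/-, against 12.67, 13.00, 13.10 and 13.22 in wild type. Its 5 probe sets were all lower, by 0.032 to 0.29 in size, and the highest-reading one differed by -0.19 ± 0.13 (SE; limma, adjusted p = 0.582). Array 1 was the lowest of its genotype on both sides. The same held for Mal and Cldn11, which encode a raft protein of myelin and the claudin of its tight junctions. Mal ranged from 11.71 to 12.36 in Creb-PomcCre-/- and from 11.76 to 12.64 in wild type, and Cldn11 from 10.12 to 10.95 in Creb-PomcCre-/- and from 10.14 to 11.19 in wild type. Their differences of -0.18 ± 0.23 (SE) and -0.12 ± 0.26 (SE) were smaller than the spread within a genotype.

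Mog, Mag and Cnp, of the surface and the cytoplasmic channels of the sheath, overlapped between genotypes. Mog, the myelin oligodendrocyte glycoprotein of the outermost membrane, read 8.93, 9.53 and 9.45 in Creb-PomcCre-/-, against 8.70, 9.05, 9.77 and 9.48 in wild type. Its wild-type SD of 0.474 was larger than that of 98.7% of all genes, and the difference of 0.052 had an interval of -0.50 to 0.61. Mag, the myelin-associated glycoprotein that faces the axon, read 10.23, 10.48 and 10.42 in Creb-PomcCre-/-, against 10.19, 10.28, 10.52 and 10.42 in wild type. Cnp, the cyclic nucleotide phosphodiesterase that keeps channels of cytoplasm open in the sheath, read 12.93, 13.15 and 13.18 in Creb-PomcCre-/-, against 13.08, 13.11, 13.37 and 13.34 in wild type. Mag differed by 0.027 ± 0.086 (SE) and Cnp by -0.14 ± 0.087 (SE), with all 3 Cnp probe sets lower. Array 1 was again the lowest in both genotypes for these 3 genes.

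Genes of myelin lipid and metabolite handling were close to 0. Ugt8a, which makes the galactolipid galactosylceramide, differed by 0.019 ± 0.13 (SE), and Fa2h, which hydroxylates its fatty acid, by 0.028 ± 0.16 (SE). Aspa, the enzyme that splits N-acetylaspartate, differed by 0.10 ± 0.091 (SE). Of the other mature members, the deacetylase gene Sirt2 differed by 0.022, the orphan receptor gene Gpr37 by 0.040, the gap junction gene Gjc3 by 0.14 and the homeobox gene Nkx6-2 by -0.10. The adjusted p-values of the 7 genes were 0.527 at the lowest and 0.967 at the highest (limma). The probe sets of Gjc3 differed in sign, at 0.14 and -0.022.

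The factors that set oligodendrocyte identity overlapped between the genotypes. Olig1 read 11.90, 11.90 and 11.86 in Creb-PomcCre-/-, against 11.85, 11.90, 11.99 and 12.002 in wild type, a difference of -0.053 ± 0.041 (SE). Olig2 read 8.92, 9.16 and 9.01 in Creb-PomcCre-/-, against 9.10, 8.94, 9.23 and 9.10 in wild type, a difference of -0.063 ± 0.078 (SE). OLIG1 and OLIG2 are basic helix-loop-helix factors, and in neither gene did 1 array stand far from the rest.

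Sox10, which acts with OLIG2 and then with MYRF on myelin genes, read 9.51, 9.34 and 9.15 in Creb-PomcCre-/-, against 9.40, 9.45, 9.50 and 9.36 in wild type. Its 3 probe sets differed by -0.092, -0.15 and -0.16, and Creb-PomcCre-/- arrays 2 and 3 were the lowest of the 7 arrays in each of them. Myrf read 9.45, 9.72 and 9.57 in Creb-PomcCre-/-, against 9.70, 9.69, 9.72 and 9.72 in wild type. The wild-type SD of Myrf, 0.015, was larger than that of only 1.02% of all genes, although Mog, Mal and Cldn11 varied widely over the same 4 arrays. Myrf differed by -0.13 ± 0.060 (SE; limma, adjusted p = 0.454).

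Pdgfra, the receptor of the precursor cell, read 9.85, 9.73 and 9.75 in Creb-PomcCre-/-, against 9.81, 9.84, 10.03 and 9.85 in wild type, a difference of -0.10 ± 0.061 (SE; limma, adjusted p = 0.521). Wild-type array 3 stood above the other arrays. Pdgfra is also made by meningeal fibroblasts, and wild-type array 3 had the highest meningeal score of the 7 arrays, a median deviation of 1.10 of its markers from their means over the arrays. How far those cells contribute to the Pdgfra value was not tested. The other Pdgfra probe sets differed by -0.088 and by 0.27. The one at 0.27 read 4.67, 4.69 and 4.57 in Creb-PomcCre-/-, against 4.37, 4.40, 4.44 and 4.30 in wild type, with no overlap (limma over all probe sets, adjusted p = 0.323). These levels lie close to 4.48, the upper bound of the lowest quartile of probe set means.

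The newly formed stage was read from Gpr17, Enpp6 and Bcas1, and all were lowest in array 1 of each genotype. Gpr17, a receptor that is on only between precursor and myelinating cell, read 9.18, 9.82 and 9.61 in Creb-PomcCre-/-, against 9.31, 9.43, 9.97 and 10.06 in wild type. Enpp6, a choline phosphodiesterase used as a marker of oligodendrocytes just formed, read 6.93, 7.20 and 7.27 in Creb-PomcCre-/-, against 6.63, 7.10, 7.59 and 7.55 in wild type. Bcas1, a protein gene of early myelinating cells, read 11.96, 12.12 and 12.02 in Creb-PomcCre-/-, against 11.94, 12.19, 12.19 and 12.10 in wild type. The genotypes overlapped in all 3, with differences of -0.15 ± 0.21, -0.083 ± 0.22 and -0.074 ± 0.065 (SE; limma, adjusted p = 0.799, 0.909 and 0.674). A further Bcas1 probe set went the other way, at 0.27, with 5.15, 5.44 and 5.16 in Creb-PomcCre-/-, against 4.90, 4.83, 5.08 and 5.11 in wild type and no overlap (limma over all probe sets, adjusted p = 0.424).

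For Cldn11, Mog, Mal, Gpr17 and Enpp6 the difference between genotypes was smaller than the SD within either genotype. Array 1 was the lowest of both genotypes for 16 of the 30 members, namely 13 of 23 mature and 3 of 3 newly formed members, but for 0 of the precursor gene and lineage factors, where 10.7% of all genes showed that pattern. In wild type alone it held for 18 members, against 23.9% of all genes, and in Creb-PomcCre-/- alone for 21, against 31.4% of all genes. Cldn11 in array 1 was 0.77 below the mean of the other Creb-PomcCre-/- arrays and 0.81 below that of the other wild-type arrays. Mal was 0.64 below in Creb-PomcCre-/- and 0.74 below in wild type, and Mog 0.55 below in Creb-PomcCre-/- and 0.74 below in wild type. The opposite pattern, array 1 highest in both genotypes, held for 2 members, against 15.4% of all genes. Members more than 0.3 below in both genotypes numbered 9 of 30, a limit chosen after the values were seen, against 0.962% of all genes. The pattern was noticed in these data, and arrays with the same number are not stated to share an animal, a litter or a day.

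**Figure D3:**
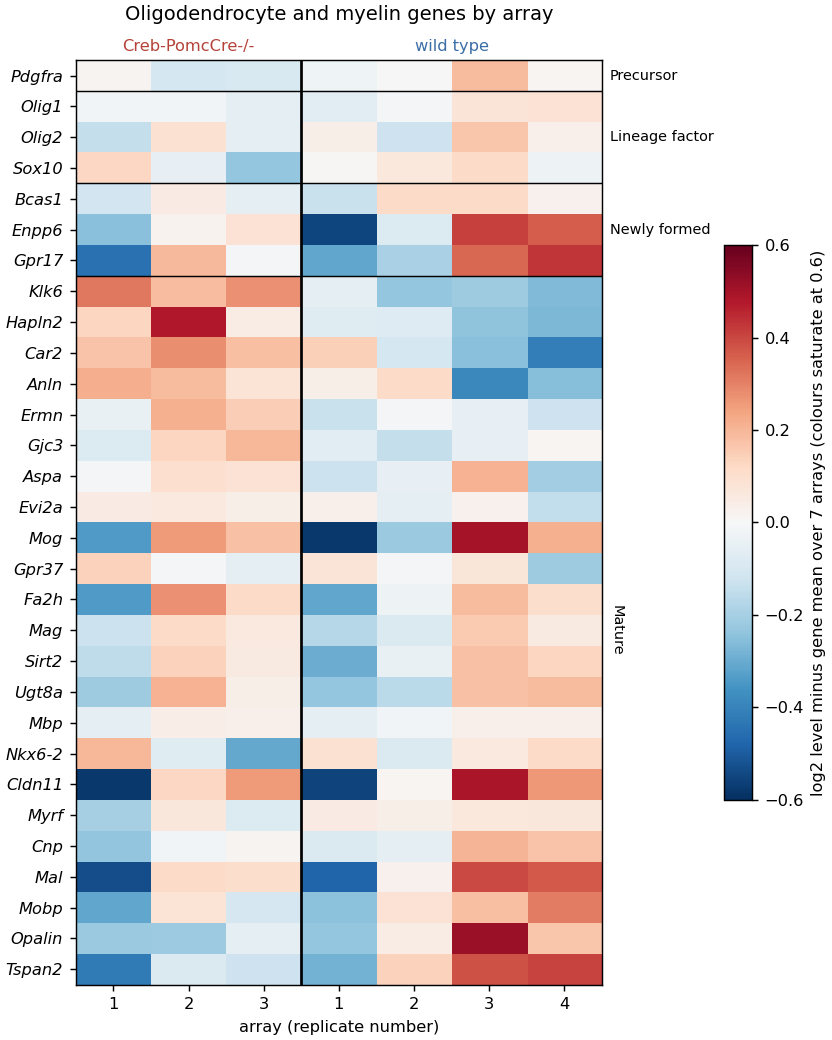
Log2 level of each measured member minus its mean over the 7 arrays, by array, Creb-PomcCre-/- left of the line and wild type right of it, ordered by stage and by difference. The blue columns at array 1 of both genotypes run through Gpr17, Enpp6, Mog, Cldn11, Mal and Tspan2, whereas Klk6, Hapln2 and Car2 are red in the 3 Creb-PomcCre-/- arrays.

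Stage scores put this in 1 value per array, as the median over members of the deviation from each member's mean over the 7 arrays. Mature members scored -0.13, 0.12 and 0.056 in Creb-PomcCre-/-, against -0.13, -0.044, 0.16 and 0.068 in wild type. Newly formed members scored -0.25, 0.047 and -0.012 in Creb-PomcCre-/-, against -0.31, -0.081, 0.35 and 0.36 in wild type. The lineage factors stayed between -0.058 and 0.12 over all arrays. Array 1 thus had the lowest mature and newly formed scores of its genotype, and wild-type arrays 3 and 4 had the highest newly formed scores. Xist was high in both arrays numbered 1 and in wild-type array 4, and its part in these scores was not tested.

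**Figure D4:**
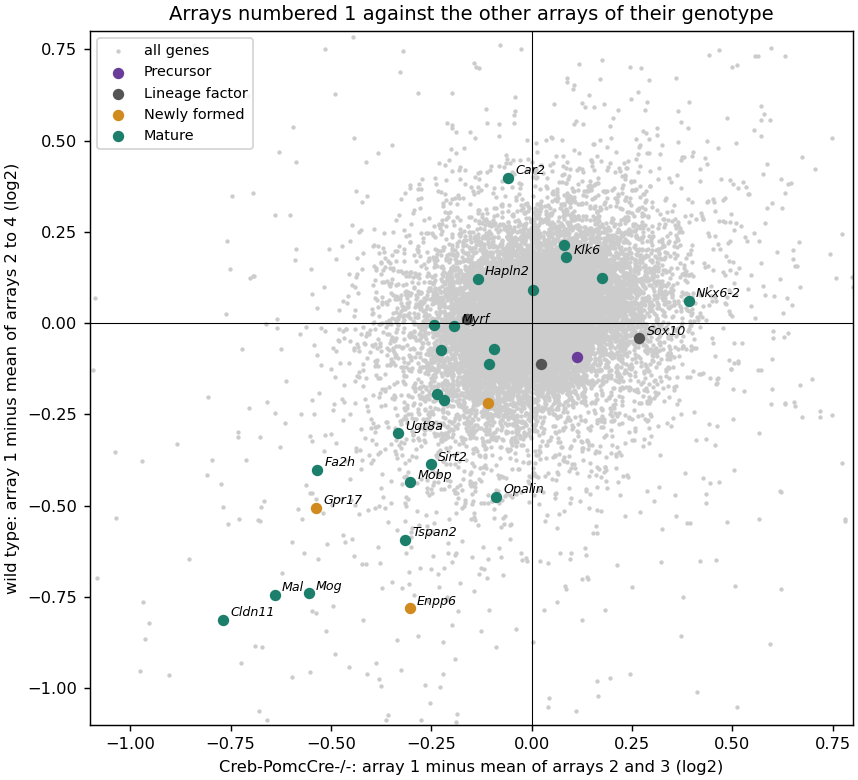
For each gene, array 1 minus the mean of the other arrays of its genotype in log2 units, for Creb-PomcCre-/- on the horizontal axis and wild type on the vertical axis. Grey points are all genes (132 lie outside the axes, 0 of them members), and coloured points are members by stage. Cldn11, Mal, Mog, Gpr17 and Enpp6 lie at the lower left, away from the cloud around 0, and Klk6 and Car2 lie above the horizontal line at 0.

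Counts of members were repeated without the arrays that stood apart, the pairs of arrays chosen after the data were seen. With all arrays, members with an unadjusted p under 0.05 or no overlap were mostly higher. Without both arrays numbered 1, as many were lower as higher. Without both of them 0 members passed, against 0.11% of all genes (limma). An unadjusted p under 0.05 was then reached by 10 members, 5 higher and 5 lower, against 12.7% of all genes, 5.8% higher and 6.87% lower. The genotypes did not overlap for 12 members, 6 higher and 6 lower, against 32.0%, 16.3% higher and 15.7% lower. The 6 lower ones were Tspan2 at -0.42, Opalin at -0.38, Mobp at -0.20, Sox10 at -0.19, Pdgfra at -0.16 and Olig1 at -0.088, and all but Olig1 were among the 10.

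Without wild-type array 1 alone, 1 member passed (Klk6), against 0.115% of all genes. An unadjusted p under 0.05 was reached by 9 members, 5 higher and 4 lower, against 14.5%, 6.9% higher and 7.57% lower. The lower ones were Tspan2 at -0.52, Opalin at -0.41, Mobp at -0.30 and Bcas1 at -0.13. The genotypes did not overlap for 8, 4 higher and 4 lower, against 20.9%, 11.2% higher and 9.76% lower.

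Without Creb-PomcCre-/- array 1 alone, 0 members passed, against 0.044%. An unadjusted p under 0.05 was reached by 7, 5 higher and 2 lower (Sox10 at -0.18 and Nkx6-2 at -0.23), against 11.5%, 5.07% higher and 6.39% lower. The genotypes did not overlap for 8, 6 higher and 2 lower, against 22.3%, 10.6% higher and 11.7% lower. With wild-type arrays 2 and 3 left out, the arrays that scored highest for thalamic and for meningeal markers, 0 passed, against 0.011%. There 6 members had an unadjusted p under 0.05, all higher, against 6.67%, 2.63% higher and 4.05% lower, and 7 did not overlap, all higher, against 24.6%, 12% higher and 12.6% lower.

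Of the 16 members with array 1 lowest in both genotypes, 7 read higher and 9 lower in Creb-PomcCre-/-. Klk6, Hapln2, Car2, Anln and Evi2a were not among them, and Ermn was. Wild-type array 1 was the highest wild-type array for Klk6, Hapln2, Car2 and Evi2a, and it stood 0.18, 0.12, 0.40 and 0.091 above the mean of the other wild-type arrays. The wild-type order of Car2, falling through arrays 1, 2, 3 and 4, was the reverse of that of Mobp. Myelin genes therefore did not move as a single block over these arrays.

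Further genes of the lineage, listed by stage from knowledge of the cell type, were low in array 1 most often at the newly formed stage. Of 11 other newly formed genes, 9 were lowest in array 1 of both genotypes, against 10.7% of all genes. 9630013A20Rik, a long noncoding RNA of newly formed oligodendrocytes that is named here after its values were seen, read 5.005, 7.04 and 6.72 in Creb-PomcCre-/-, against 4.90, 6.49, 7.62 and 7.39 in wild type. Both arrays numbered 1 were thus below every other array by more than 1 log2 unit. Bmp4, a signal gene of this stage that also serves other cells, read 6.11, 6.44 and 6.35 in Creb-PomcCre-/-, against 5.98, 6.50, 7.33 and 6.69 in wild type. Of 52 other mature genes 14 showed the pattern, also above the share of all genes, and of 11 other precursor genes 1 did, close to that share.

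Between genotypes, 0 of these further genes passed (limma). An unadjusted p under 0.05 was reached by 27.3% of the precursor, 9.09% of the newly formed and 11.5% of the mature genes, against 11.7% of all genes, 5.6% higher and 6.12% lower. Of the precursor genes 1 was higher and 2 lower at an unadjusted p under 0.05, with the complement-like gene C1ql1 at 0.28 ± 0.090 (SE), Ptprz1, a receptor phosphatase, at -0.11 ± 0.036 (SE), Cacng4 at -0.18 and Lhfpl3 at -0.21. Of the newly formed genes 1 was lower and 0 higher. Itpr2, a calcium release channel of this stage, was at -0.24 ± 0.075 (SE), with Casr at 0.16, Rras2 at -0.14 and Bmp4 at -0.33. Of the mature genes 4 were higher and 2 lower, with Ninj2, an adhesion protein gene, at 0.35 ± 0.086 (SE), Nfasc, of nodes and paranodes, at -0.27 ± 0.090 (SE), Dbndd2 at 0.15 and Tmem88b at -0.13. Their adjusted p-values lay between 0.267 and 0.644 (limma). The medians were -0.037 for precursor, -0.14 for newly formed and 0.037 for mature genes. The probe sets of Cacng4, Ptprz1, Itpr2 and Dbndd2 differed in sign.

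Myelin is rich in cholesterol and sphingolipids, and genes of their synthesis and turnover were counted as well. Of 35 measured, 0 passed, and 3 were higher and 1 lower at an unadjusted p under 0.05, or 11.4% against 11.7% of all genes. Array 1 was the lowest of both genotypes for 12 of the 35, against 10.7% of all genes. The median was 0.020. Scd3 and Scd1, desaturases of fatty acids, were at 0.55 ± 0.13 (SE) and 0.17 ± 0.050 (SE), Fdft1, squalene synthase, at 0.10 ± 0.033 (SE), and Sptlc2, of the first step of sphingolipid synthesis, at -0.20 ± 0.058 (SE; limma, adjusted p from 0.267 to 0.321). Both Scd1 probe sets were higher, while those of Scd3, Fdft1 and Sptlc2 differed in sign.

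Markers of other cells were scored in the same way. Thalamus and habenula markers (15 of 15 measured) scored -0.26, -0.36 and 0.14 in Creb-PomcCre-/-, against -0.35, 0.88, -0.21 and 0.23 in wild type, with summed levels of 13.58 to 13.87 in Creb-PomcCre-/- and 13.65 to 14.33 in wild type on the log2 scale. Tcf7l2, a gene of newly formed oligodendrocytes, is also on that thalamic list, and read 8.66 to 10.96 in wild type. Meningeal and fibroblast markers (12 of 12) scored -0.42, -0.31 and -0.35 in Creb-PomcCre-/-, against -0.33, 0.33, 1.10 and -0.29 in wild type, with summed levels of 10.49 to 11.16 in Creb-PomcCre-/- and 10.71 to 12.09 in wild type. Neuron markers (18 of 18) scored -0.052 to -0.018 in Creb-PomcCre-/- and -0.0071 to 0.058 in wild type. Their summed levels were 16.32 to 16.36 in Creb-PomcCre-/- and 16.38 to 16.43 in wild type, so neither measure overlapped. At an unadjusted p under 0.05, 4 were lower and 0 higher, or 22.2% against 11.7% of all genes. These were Rbfox3 and Nefm at -0.18, Meg3 at -0.14 and Syn1 at -0.12 (limma, adjusted p from 0.158 to 0.308). Endothelial and mural markers (12 of 12) scored -0.031, -0.056 and -0.14 in Creb-PomcCre-/-, against 0.013, 0.058, 0.081 and 0.043 in wild type. Their scores did not overlap either. Their summed levels were 12.12 to 12.28 in Creb-PomcCre-/- and 12.27 to 12.36 in wild type, and 3 were lower and 0 higher at an unadjusted p under 0.05, or 25% against 11.7% of all genes. These were Pdgfrb at -0.40, Acta2 at -0.34 and Slco1a4 at -0.24 (limma, adjusted p from 0.271 to 0.390). Microglia markers (11 of 12) scored -0.13 to 0.073 in Creb-PomcCre-/- and 0.029 to 0.074 in wild type, with summed levels of 12.22 to 12.37 in Creb-PomcCre-/- and 12.33 to 12.49 in wild type. Of these, 2 were lower and 0 higher at an unadjusted p under 0.05, or 18.2%. Fcrls, a microglial surface receptor gene, differed by -0.88 ± 0.11 (SE; limma, adjusted p = 0.0624) with no overlap, and Csf1r by -0.16. Tmem119 went the other way, at 0.10 with no overlap (limma, adjusted p = 0.508). Of the 11 microglia markers, 4 read higher and 7 lower. The genotypes did not overlap for 1 higher and 2 lower ones, against 6.09% and 6.05% of all genes. Astrocyte markers (12 of 12) lay between -0.047 and 0.066 over all arrays. At an unadjusted p under 0.05, 3 of them were higher and 0 lower, or 25%. Of the ependymal and tanycyte markers (9 of 10), 2 were higher and 0 lower, or 22.2%. By the same count, 2 meningeal and 1 thalamic marker were lower and 0 higher, or 16.7% and 6.67%. Hypothalamus markers (12 of 13) scored 0.10, 0.045 and -0.026 in Creb-PomcCre-/-, against 0.11, -0.27, 0.0041 and 0.029 in wild type. At an unadjusted p under 0.05, 2 were higher and 0 lower, or 16.7%. The 3 that read lower were Crh at -0.36, Oxt at -0.23 and Trh at -0.043. Pomc was at 0.21 ± 0.24 (SE; limma, adjusted p = 0.765). Of the peripheral myelin markers 5 of 7 were measured, 2 higher and 3 lower. Their scores overlapped, at -0.019 to 0.039 in Creb-PomcCre-/- and -0.080 to -0.0023 in wild type. Summed levels were 10.15 to 10.19 in Creb-PomcCre-/- and 9.99 to 10.12 in wild type. The highest-reading of the 5, Pmp22, differed by 0.18 (limma, adjusted p = 0.372). Array 1 was the lowest of both genotypes for 4 thalamic, 3 astrocyte, 3 endothelial and mural and 3 meningeal markers, against 10.7% of all genes. The same held for 1 marker each of neurons, microglia, ependyma and hypothalamus, and for 0 of peripheral myelin. No marker is listed at 0, and the values give no detection call. The part of these other cells, or of tissue around the hypothalamus, in the values of the myelin genes was not tested.

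Promoters are shown for Klk6, Hapln2 and Ermn, which read higher in Creb-PomcCre-/-, and for Mobp and Mal, which were low in the arrays numbered 1. They are RefSeq windows of assembly GRCm38.p6, from 250 bases before to 50 after a transcript start, and 21 of the 31 symbols had one. The cyclic AMP response element TGACGTCA, the full site bound by CREB, was in 0 of 21 genes' windows and in 2.03% of 27025 genes in the table. Its shorter form TGACG, which every full site contains, was in 4 of 21 (Ermn, Mal, Mog and Pdgfra), or 19.0%, against 23.0% of all genes. The core ACAAAG of SOX sites was in 6 of 21 (Cnp, Klk6, Mag, Mobp, Opalin and Tspan2), or 28.6%, against 21.0%. CCAAT was in 42.9% against 41.1%, and the E-box CAGCTG in 14.3% against 18.3%. Both strands were searched, and a match is a match of letters only. Mobp held 6 matches of the SOX core, all more than 100 bases before its start. Klk6 has 2 windows in the table, and the second, chr7:43825200-43825499, held none of these motifs. Capitals mark a match of any of these motifs on either strand.
Klk6 promoter, first of 2 windows, chr7:43824294-43824593, plus strand: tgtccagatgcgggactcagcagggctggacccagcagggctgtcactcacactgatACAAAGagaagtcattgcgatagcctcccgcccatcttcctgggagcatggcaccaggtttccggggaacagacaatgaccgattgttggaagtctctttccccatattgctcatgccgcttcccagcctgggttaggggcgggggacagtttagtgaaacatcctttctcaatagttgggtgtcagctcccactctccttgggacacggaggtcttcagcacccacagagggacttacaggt
Hapln2 promoter, chr3:88027462-88027761, minus strand: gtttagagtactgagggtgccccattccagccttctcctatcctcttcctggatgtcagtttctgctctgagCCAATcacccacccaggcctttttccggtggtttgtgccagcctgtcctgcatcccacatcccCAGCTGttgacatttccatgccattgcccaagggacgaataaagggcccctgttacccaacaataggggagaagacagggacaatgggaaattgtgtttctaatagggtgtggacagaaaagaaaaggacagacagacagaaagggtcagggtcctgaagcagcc
Ermn promoter, chr2:58052815-58053114, minus strand: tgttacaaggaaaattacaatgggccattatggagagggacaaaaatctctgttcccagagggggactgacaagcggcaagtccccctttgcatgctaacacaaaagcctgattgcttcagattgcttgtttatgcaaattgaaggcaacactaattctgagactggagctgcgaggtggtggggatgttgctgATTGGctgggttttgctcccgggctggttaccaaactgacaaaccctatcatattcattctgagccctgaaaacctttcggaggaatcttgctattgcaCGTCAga
Mobp promoter, chr9:120149492-120149791, plus strand: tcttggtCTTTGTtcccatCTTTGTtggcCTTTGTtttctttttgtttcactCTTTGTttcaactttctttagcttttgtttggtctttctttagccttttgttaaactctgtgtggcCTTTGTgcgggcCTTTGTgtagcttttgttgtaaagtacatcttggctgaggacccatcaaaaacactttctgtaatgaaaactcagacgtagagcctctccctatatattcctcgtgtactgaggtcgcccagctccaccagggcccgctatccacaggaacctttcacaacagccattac
Mal promoter, chr2:127656646-127656945, minus strand: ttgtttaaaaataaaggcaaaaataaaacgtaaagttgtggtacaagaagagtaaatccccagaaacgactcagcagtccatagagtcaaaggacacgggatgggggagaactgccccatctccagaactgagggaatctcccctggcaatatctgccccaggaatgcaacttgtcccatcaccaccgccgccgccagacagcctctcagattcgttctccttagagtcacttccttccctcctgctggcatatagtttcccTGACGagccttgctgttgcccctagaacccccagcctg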

How the data were processed

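Affymetrix mouse430_2 arrays measured RNA of 3 Creb-PomcCre-/- and 4 wild-type hypothalami, grouped by the labels. The log2 values are the authors' deposited ones. The submitters' processing notes list R 2.10.0, affy and RMA, with no order or settings. RMA usually equalises intensity distributions over arrays and gives no detection call, so low values cannot be told from background. Of 45101 probe sets, 64 controls were left out, and 34945 carried 1 gene symbol in the platform annotation. Their symbols were checked against the RefSeq table, with 0 changed. The number of arrays limits the precision: standard errors of the differences had a median of 0.073.

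Genotypes were compared with limma 3.58.1 in R 4.3.3 (lmFit, eBayes with an intensity trend, two-sided, Benjamini-Hochberg) over 18193 genes, and again over 45037 probe sets. Values of every array are given for members with an unadjusted p under 0.05 or groups that do not overlap, and for a list of stage and myelin genes fixed by name. Of the further lists, the 4 genes with the smallest p are named. The members and lists were chosen with earlier results of these data known. The labels call the samples biological replicates. Alternatives covered the variance model, dim probe sets, choice of probe set, normalization, array weights, the replicate number, Xist and left-out arrays. Figures were drawn with matplotlib 3.10.9.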

Additional observations from a re-analysis of the deposited data

Results flagged for a closer look

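Pdgfra in wild-type array 3 read 10.03, while wild-type arrays 1, 2 and 4 lay between 9.81 and 9.85. The gap to the nearest of them made up 0.837 of the group's range. The precursor score of that array, 0.19, is the same observation, since Pdgfra is its only gene. It was the only one of the 30 members picked out in this way, and chance picks out about 1 group in 20.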

How the results depend on the processing

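Each of the 30 member differences was recomputed under 18 alternatives, 540 values in all. Of these, 492 kept direction and side of the threshold, 47 uncalled ones changed sign, and Klk6 passed without wild-type array 1 (0.49). No result changed its call under eBayes without an intensity trend or without dim probe sets. Genes past the threshold, 2 as reported, numbered 7 with robust eBayes, 7 with array weights, 1 with the mean of all probe sets and 4 with Xist as a covariate. Leaving out an array gave 2 to 21 such genes and 0 to 1 members past the threshold. It gave 4 to 9 members with an unadjusted p under 0.05 and 4 to 8 members without overlap. Over all genes, these 2 shares were 11.7% and 12.1% with all arrays. They were 14.5% and 20.9% without wild-type array 1, and 11.5% and 22.3% without Creb-PomcCre-/- array 1. Leaving out an array moved the median of mature members between -0.057 and 0.11, and that of precursor and newly formed members between -0.20 and -0.0097. Without both arrays numbered 1, chosen after seeing the data, 20 genes passed. There 10 members had an unadjusted p under 0.05 (5 higher, 5 lower), against 12.7% of all genes. The genotypes did not overlap for 12 (6 higher, 6 lower), against 32.0%. Without wild-type arrays 2 and 3, also chosen after seeing the data, 7 members did not overlap, against 24.6% of all genes. Bcas1 was then at 0.010, Enpp6 at 0.046 and Cldn11 at 0.081.

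The mean of all probe sets turned the sign of Pdgfra (0.025), Bcas1 (0.029) and Mbp (-0.066), and the most variable probe set that of Pdgfra (0.27), Bcas1 (0.27) and Mbp (-0.044). Cyclic loess gave Mbp -0.0028, and array weights gave Ugt8a -0.010 and Sirt2 -0.0038. With Xist as a covariate, Mbp was at -0.0057, Mog at -0.049, Mag at -0.0079, Ugt8a at -0.020, Fa2h at -0.052 and Sirt2 at -0.025. With an array left out, differences that crossed 0 ran from -0.30 to 0.024 (Gpr17), -0.28 to 0.042 (Enpp6), -0.012 to 0.038 (Mbp), -0.13 to 0.24 (Mog), -0.026 to 0.099 (Mag), -0.32 to 0.14 (Cldn11), -0.37 to 0.031 (Mal), -0.080 to 0.13 (Ugt8a), -0.10 to 0.21 (Fa2h), -0.23 to 0.020 (Nkx6-2), -0.024 to 0.082 (Gpr37) and -0.075 to 0.11 (Sirt2). The cause was not tested.

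Replicate numbers were not taken as pairs, because no label says that they mark a shared source. Deviations of same-numbered arrays correlated at 0.32, 0.077 and 0.18, against -0.30 to 0.16 for arrays of different numbers. Whether same-numbered arrays share a factor was not tested. With the replicate number as a block, 2 genes and 0 members passed, Enpp6 was at 0.026 and Gpr37 at -0.024. The files give no signal over background, so low values cannot be set apart from it.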

Other observations

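One probe set of Galc, which encodes the lysosomal enzyme that breaks down galactosylceramide, was singled out after its values were seen. It read 7.77, 4.50 and 7.71 in Creb-PomcCre-/-, against 7.70, 7.62, 8.67 and 8.47 in wild type. The value in Creb-PomcCre-/- array 2 was thus far below the other arrays, and the difference of -1.46 rested on it. The other Galc probe sets differed by 0.18 and -0.072.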
